A study of Mus musculus with 8 samples.

Results

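The endothelial and angiogenic signalling genes examined here are 10 genes of the blood vessel wall: the ligands Vegfa, Apln and Angpt2, the receptors Kdr, Flt1, Tek and Aplnr, the surface and junction molecules Pecam1 and Cdh5, and the secreted proteoglycan Esm1. They were read on every array spot that the array files annotate with one of these symbols, which gave 25 spots of 14 probes, out of 59305 spots of 55681 probes and 21021 genes on the array. Kdr and Vegfa have 2 probes each and Flt1 has 3, so that 7 genes rest on 1 probe. Only Aplnr, the apelin receptor, passed the test across all probes, a call that was kept in only 3 of 8 fits that left out 1 array. The signal of Aplnr was lower in exposed thyroids, with a control mean 2.41 times the exposed mean. The endothelial genes Pecam1, Cdh5 and Tek had log2 fold changes of 0.08, 0.14 and 0.01, with a wide 95% interval for Tek (-0.66 to 0.67). Other endothelial genes had larger values in either direction without passing the test. Examples are Mmrn2 at 1.03 and Kdr at -0.55 on probe A_51_P316553, whose other probe gave 0.12.

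Total thyroid RNA was hybridised to 8 one-colour arrays, 1 per thyroid. The 4 exposed thyroids (Tc, named S539, S588, S589 and S590) came from mice given 99mTcO4-, pertechnetate labelled with technetium-99m, and had absorbed a dose of 30 Gy when RNA was taken 24 hours after administration. The 4 control thyroids (Ct, numbered 1 to 4) came from mice that received no radioisotope, described as untreated in one passage of the study and as given saline in another. All mice were female, 8 weeks old and of the Balb/c strain, with no transgene or deletion. Each array holds the bulk RNA of one thyroid sample with all of its cell types. Genes of other tissues were also measured: 6 of 6 skeletal muscle genes, 3 of 3 parathyroid genes and 4 of 5 adipocyte genes were well above background on all 8 arrays. The part of vessels of such tissues in the endothelial signals was not tested.

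Pertechnetate enters thyroid follicular cells through the sodium iodide symporter, and the follicles are wrapped in a dense net of fenestrated capillaries. Follicular cells are known to make Vegfa, whose receptors Kdr and Flt1 sit on the neighbouring endothelium, Kdr carrying most of the growth signal and Flt1 acting largely as a trap for the ligand. Angpt2 competes with Angpt1 at the receptor Tek, and apelin acts through Aplnr, a G protein-coupled receptor of endothelial cells.

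The probes on which the results turn are shown first, because a signal on these arrays is the signal of a single 60-base stretch of a transcript. The first 30 bases of each are given 5′ to 3′ in lower case, from the array files, with the position of the whole probe in mm9 as those files give it. Exon and UTR placement was not analysed here.
Aplnr (A_52_P97572), chr2:84979638-84979697, strand +: gggcctttgtgagctggacatgggtgtgca
Esm1 (A_52_P257625), chr13:114008204-114008263, strand +: aatgtactcgtgggaagatccgtgaatgta
Angpt2 (A_51_P201982), chr8:18691458-18691517, strand -: acctatcttgatggcttagtttttaatggc
Kdr (A_51_P316553), chr5:76329309-76329368, strand -: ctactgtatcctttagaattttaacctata
Kdr (A_55_P2094469), chr5:76330395-76330454, strand -: tgtttaaatggaagtggtcctgtcccggct
The pair of Kdr probes lies at different places of one transcript, at transcript positions 5377 and 4291. Accessions of 12 of the 14 member probes matched the RefSeq gene table under the same symbol, and the other 2 are Flt1 probes designed on AK005502 and ENSMUST00000110529, which keep the name of the array files.

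The RefSeq promoter table (GRCm38.p6) held 7 entries for 6 of the 10 genes, namely Apln, Esm1, Flt1, Kdr, Tek and Vegfa. Aplnr, Angpt2, Cdh5 and Pecam1 had no entry. The 250 bases before the start of Esm1 and Kdr are shown, since among the genes with an entry these had the smallest unadjusted p, with every match to the motifs searched in capitals. The hypoxia response core was searched as ACGTG or GCGTG and the ETS core as CCGGAAG or CAGGAAG, on both strands, and the motifs do not overlap each other.
Esm1, chr13:113209409-113209658, strand +: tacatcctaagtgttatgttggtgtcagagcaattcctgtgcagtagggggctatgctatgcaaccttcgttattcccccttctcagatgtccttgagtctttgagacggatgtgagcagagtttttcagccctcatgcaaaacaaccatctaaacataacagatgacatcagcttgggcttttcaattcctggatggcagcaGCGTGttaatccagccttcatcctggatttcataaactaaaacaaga
Kdr, chr5:75978456-75978705, strand -: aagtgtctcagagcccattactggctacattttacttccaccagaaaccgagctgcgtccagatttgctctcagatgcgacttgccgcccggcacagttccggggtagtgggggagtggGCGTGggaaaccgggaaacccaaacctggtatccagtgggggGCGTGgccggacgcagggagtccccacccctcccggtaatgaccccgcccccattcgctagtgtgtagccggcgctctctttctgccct
Kdr held 2 matches to the hypoxia response core and Esm1 held 1. Over the 7 promoters, 4 held the hypoxia response core, against 38.6% of the 32851 promoters of the table, and 1 (Apln) held the ETS core, against 17.0%. A match of so few letters is a description of the window and shows no binding.

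On the arrays, 60.5% to 77.3% of spots were well above background, the 75th percentile of the signal lay between 701 and 1230.0, and no spot was saturated. All 14 member probes were well above background on all 8 arrays. The arrays shared 1 slide and 1 scan date. Exposed samples filled one row of the slide and controls the other, and the effects of row and group cannot be told apart. Control arrays 1 and 2 stood apart: their mean centred score over 9 T cell and thymocyte markers was 3.87 and 2.86, against -1.47 to -0.0028 on the other 6 arrays. To score a list, each gene's average over the 8 arrays was subtracted from its log2 signals, and the genes were then averaged on each array. Member differences are therefore also given without both arrays, a choice made after seeing the data.

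Signals are log2 of the background-subtracted intensity after quantile normalization, and differences are exposed minus control. Each probe was tested with limma over all 55681 probes with Benjamini-Hochberg adjustment and a threshold of 0.05. Of the 14 member probes, 1 was called lower in the exposed group, beside 0.194% of all probes, and 0 were called higher. In either direction 0.781% of all probes were called. At an unadjusted limma p under 0.05 the count was 4 of 14, or 28.6%, beside 12.2% of all probes, and these 4 were the probes of Aplnr, Esm1 and Angpt2 and one of the Kdr probes. The 4 exposed arrays did not overlap the 4 controls for 3 of 14 probes (21.4%), beside 9.11% of all probes. All 14 member probes were well above background, whereas the shares over all probes include dim ones. A probe was counted as dim if neither group had it well above background on all 4 arrays. Without dim probes 733 of 36117 probes were called. The unadjusted and non-overlap shares were not computed without dim probes. Fold changes were above 0 for 7 probes and below 0 for 7, with a median of -0.04 on the log2 scale, beside 0.01 for all probes. The study's methods call the arrays of a group biological replicates, and 4 per group limit the precision.

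**Figure D1:**
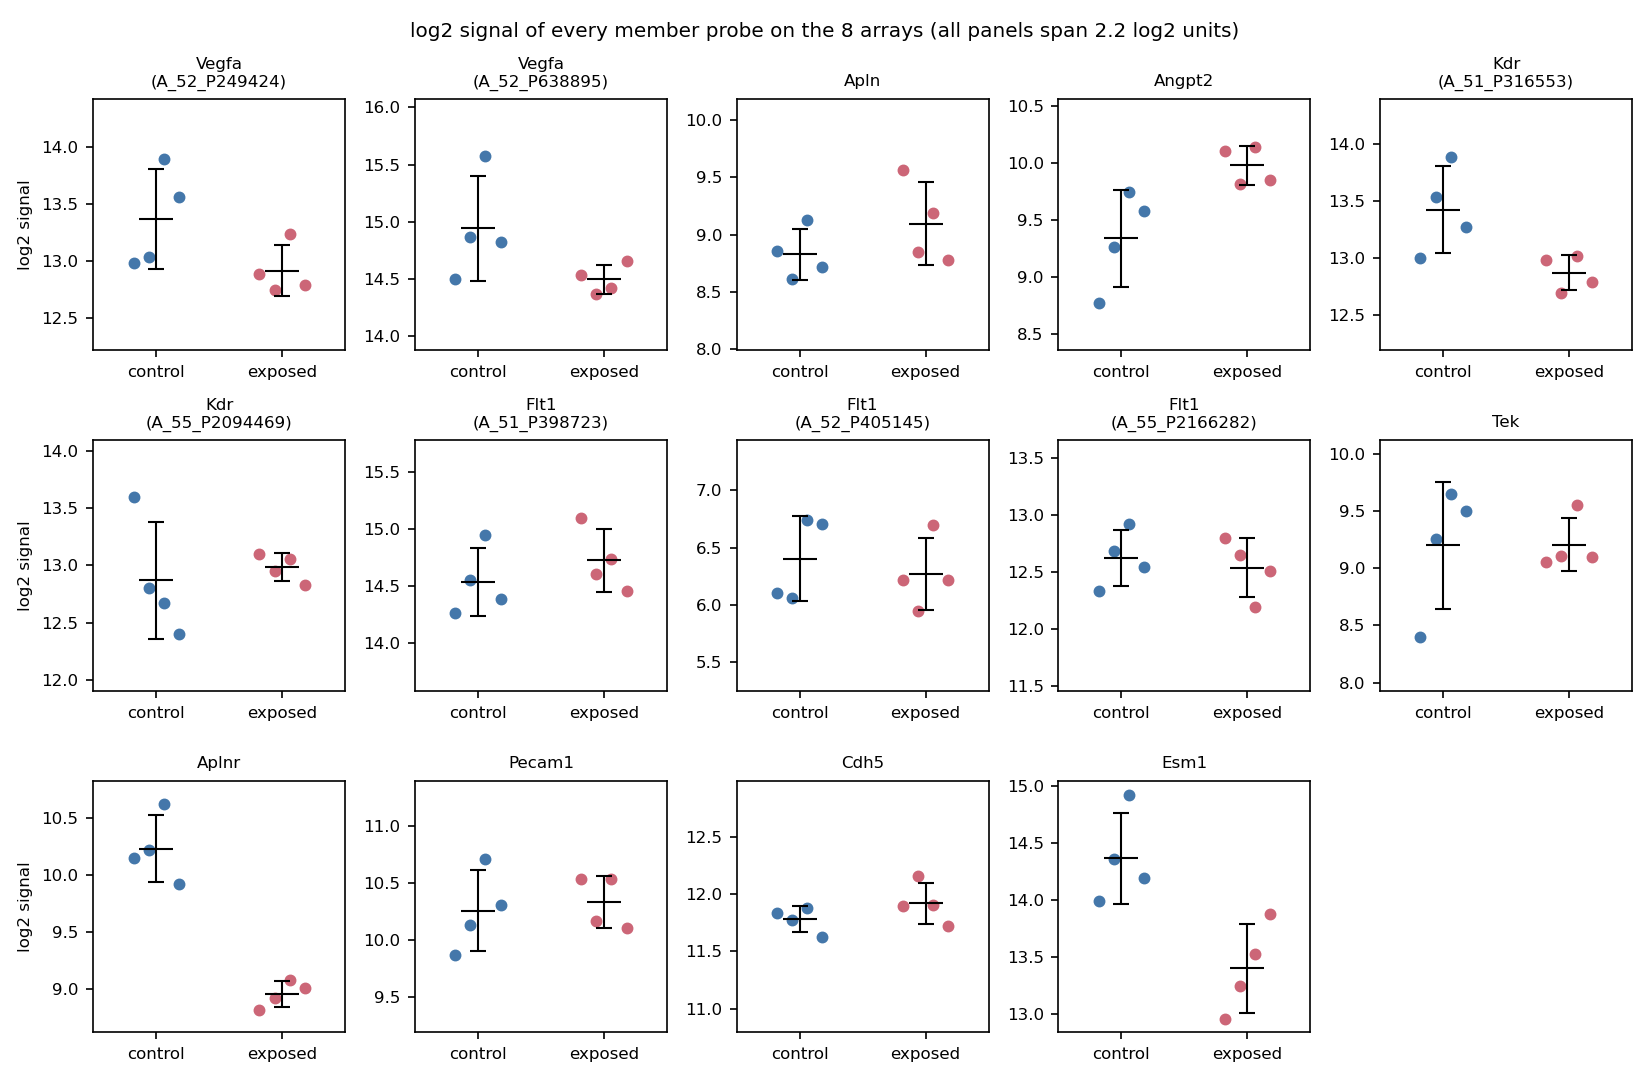
log2 signal (vertical axis) of each of the 14 member probes on the 4 control (blue) and 4 exposed (red) arrays; points stand in the order of the array names within a group, and black marks give the mean with the SD (n = 4). Aplnr shows a clear space between the groups, Esm1 and Angpt2 a narrow one, and the other probes overlap.

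Among the ligands, none passed the test across all probes. Vegfa, the main growth factor for endothelium, was read by 2 probes. On probe A_52_P638895 its log2 signal was 14.49, 14.87, 15.58 and 14.83 on control arrays 1 to 4, and 14.54, 14.37, 14.42 and 14.65 on S539, S588, S589 and S590. Control 3 was the highest array, control 1 lay within the exposed range, and the groups overlapped. The difference was -0.44 ± 0.23 (SE, limma adjusted p = 0.484), and on probe A_52_P249424 it was -0.45 ± 0.24 (limma adjusted p = 0.491). Both probes of Vegfa gave nearly the same difference, and neither passed the test. Without controls 1 and 2 these differences were -0.70 (limma adjusted p = 0.324) and -0.81 (limma adjusted p = 0.245).

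Angpt2, which is stored in endothelial cells and loosens vessels by competing at Tek, had a log2 signal of 8.78, 9.26, 9.74 and 9.58 on control arrays 1 to 4. On S539, S588, S589 and S590 it was 10.10, 9.82, 10.14 and 9.85. Every exposed array was above every control, with a gap of 0.07 between the groups, and control 1 was the lowest array. The difference was 0.64 ± 0.23 (SE), a ratio of 1.56, with an exact permutation p of 0.0286, the smallest that the 70 assignments of 4 and 4 arrays can give. Angpt2 did not pass the test across all probes (limma adjusted p = 0.324), and its difference was 0.32 without controls 1 and 2 (limma adjusted p = 0.483). Apln, the peptide ligand of Aplnr, had log2 signals of 8.61 to 9.12 in controls and 8.77 to 9.56 in exposed thyroids. Its difference was 0.27 ± 0.22 (SE, limma adjusted p = 0.638), which was within the spread of the replicates, and 0.17 without controls 1 and 2 (limma adjusted p = 0.804).

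Among the receptors, Aplnr fell and no other passed the test. Its log2 signal was 10.15, 10.22, 10.62 and 9.92 on control arrays 1 to 4, and 8.82, 8.92, 9.08 and 9.01 on S539, S588, S589 and S590. All 4 exposed arrays lay below all 4 controls, with a gap of 0.84, and the exposed arrays were close together (SD 0.11, against 0.29 in controls, n = 4). The difference was -1.27 ± 0.17 (SE) on the log2 scale, with a 95% interval of -1.67 to -0.86 (limma adjusted p = 0.0246; two-sided exact permutation p = 0.0286). Controls 1 and 2 lay between the other controls, and without both the difference was -1.32 (limma adjusted p = 0.149). The fit then compared 2 controls with 4 exposed arrays and called 83 probes in all. Leaving out a single array gave -1.36 to -1.13, with limma adjusted p from 0.0352 to 0.0964, and the call was lost in 5 of 8 cases: without control 2 and without each of the exposed arrays in turn.

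In bulk tissue fewer cells of a type and less RNA per cell cannot be told apart. On each array the signal of Aplnr was also set against the mean of the 33 other genes of an endothelial identity list, as a description. Relative to that mean Aplnr was at -1.86 to -1.36 in controls and at -3.28 to -2.58 in exposed thyroids, a difference of -1.32, beside -1.27 for Aplnr alone.

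Kdr, the main signalling receptor for Vegfa, gave different readings on its 2 probes. On probe A_51_P316553, printed in 10 spots whose log2 signals had an SD of 0.027 to 0.053 on an array, the signal was 13.00, 13.54, 13.89 and 13.27 on control arrays 1 to 4. On S539, S588, S589 and S590 it was 12.98, 12.70, 13.02 and 12.79. Controls 2, 3 and 4 lay above every exposed array, and control 1 lay just below the highest exposed array, so that the groups overlapped by 0.02. The difference was -0.55 ± 0.21 (SE), with an exact permutation p of 0.0571, and it did not pass the test across all probes (limma adjusted p = 0.354). Without controls 1 and 2 it was -0.71 (limma adjusted p = 0.296).

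On the other Kdr probe, A_55_P2094469, the signal was 13.60, 12.80, 12.67 and 12.40 on control arrays 1 to 4, and 13.10, 12.95, 13.06 and 12.83 on S539, S588, S589 and S590. Here control 1 was the highest of all arrays and the other 3 controls were below every exposed array. The difference was 0.12 ± 0.26 (SE, limma adjusted p = 0.878). It was 0.36 without control 1 (limma adjusted p = 0.310) and 0.45 without controls 1 and 2 (limma adjusted p = 0.353). The array on which one Kdr probe was lowest among controls was thus the one on which the other was highest.

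The signal of probe A_51_P316553 minus that of A_55_P2094469 was -0.60, 0.73, 1.21 and 0.87 on control arrays 1 to 4. It was -0.12, -0.25, -0.04 and -0.04 on the exposed arrays. Between the groups this difference changed by -0.67 (exact permutation p = 0.143), and by -1.05 without control 1, which is given with no test because control 1 was left out after its value was seen. Over 1825 transcripts with a pair of probes at least 500 bases apart, the median change of the later minus the earlier probe was -0.08, and 4.55% had a lower value than Kdr. The 2 probes of Vegfa kept the same difference in both groups (change 0.01, exact permutation p = 1.0), and the change for probes A_51_P398723 and A_55_P2166282 of Flt1 was 0.27 (exact permutation p = 0.143).

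**Figure D2:**
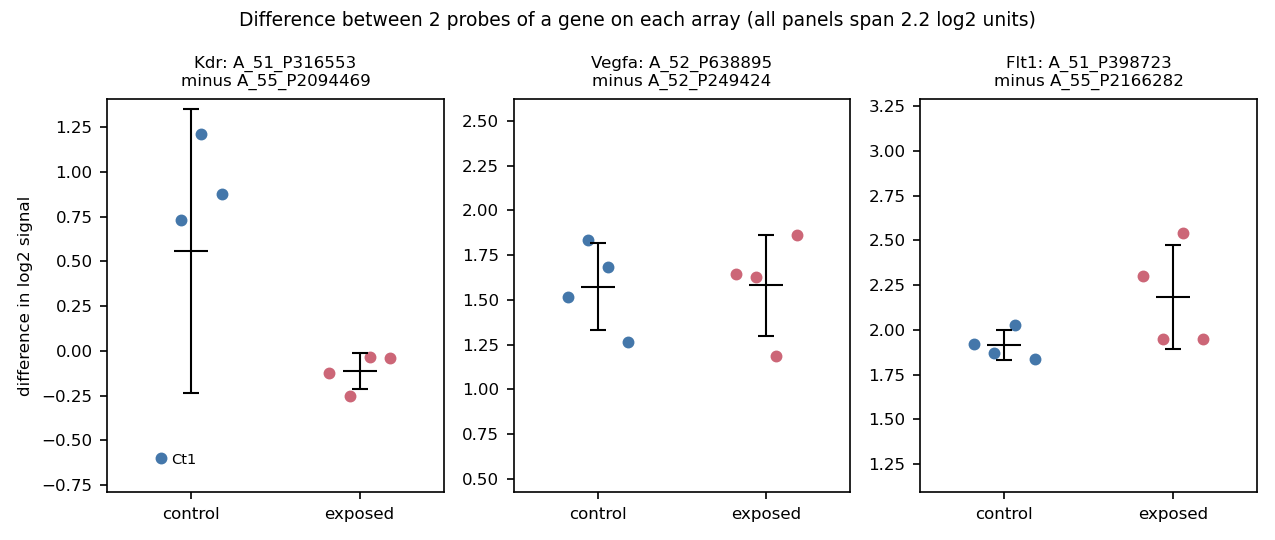
Difference in log2 signal between a pair of probes of Kdr, Vegfa and Flt1 (vertical axis) on each control (blue) and exposed (red) array, with mean and SD (n = 4). Control 1, labelled in the Kdr panel, lies at -0.60 while the other controls lie between 0.73 and 1.21 and the exposed arrays between -0.25 and -0.04.

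Flt1, the decoy receptor of Vegfa, did not pass the test on any of its 3 probes, with differences of 0.19 ± 0.21, -0.13 ± 0.24 and -0.08 ± 0.19 (SE, limma adjusted p = 0.736, 0.846 and 0.882) for A_51_P398723, A_52_P405145 and A_55_P2166282. Without controls 1 and 2 these were 0.058, -0.45 and -0.19 (limma adjusted p = 0.937, 0.465 and 0.730). On probe A_51_P398723 its signal ranged from 14.26 to 14.95 in controls and from 14.45 to 15.09 in exposed thyroids. Tek, the angiopoietin receptor, had a log2 signal of 8.40, 9.26, 9.65 and 9.50 on control arrays 1 to 4, and 9.06, 9.11, 9.55 and 9.10 on the exposed arrays. The exposed range lay within the control range, and the difference was 0.01 ± 0.29 (SE, limma adjusted p = 0.995). Its 95% interval ran from -0.66 to 0.67. Without controls 1 and 2, where the low control 1 is absent, the difference of Tek was -0.37 (limma adjusted p = 0.481).

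Pecam1 (CD31) and Cdh5 (VE-cadherin), which lie at the contacts between endothelial cells, did not pass the test. The part of other cell types of the tissue in their signals was not tested. Pecam1 ranged from 9.87 to 10.71 in controls and from 10.11 to 10.53 in exposed thyroids, a difference of 0.08 ± 0.21 (SE, limma adjusted p = 0.903). It was -0.18 without controls 1 and 2 (limma adjusted p = 0.748). Cdh5 was the steadiest of the members in controls, at 11.84, 11.78, 11.88 and 11.63 on arrays 1 to 4. On the exposed arrays it was 11.90, 12.16, 11.91 and 11.72, and the difference was 0.14 ± 0.14 (SE, 95% interval -0.19 to 0.47, limma adjusted p = 0.714). Without controls 1 and 2 it was 0.16 (limma adjusted p = 0.720). The interval for Cdh5 leaves room for a change of up to 0.47 on the log2 scale, so a small change in endothelial content could not be detected with 4 arrays per group.

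Esm1 (endocan), a proteoglycan secreted by activated endothelium and by sprouting tip cells, was read by 1 probe. Its log2 signal was 13.995, 14.36, 14.92 and 14.19 on control arrays 1 to 4, and 12.96, 13.25, 13.53 and 13.87 on S539, S588, S589 and S590. Every exposed array was below every control, with a gap of 0.12 between S590 and control 1. The difference was -0.96 ± 0.27 (SE), a control mean 1.95 times the exposed mean, with an exact permutation p of 0.0286. Esm1 did not pass the test across all probes (limma adjusted p = 0.203), and without controls 1 and 2 its difference was -1.15 (limma adjusted p = 0.269).

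**Figure D3:**
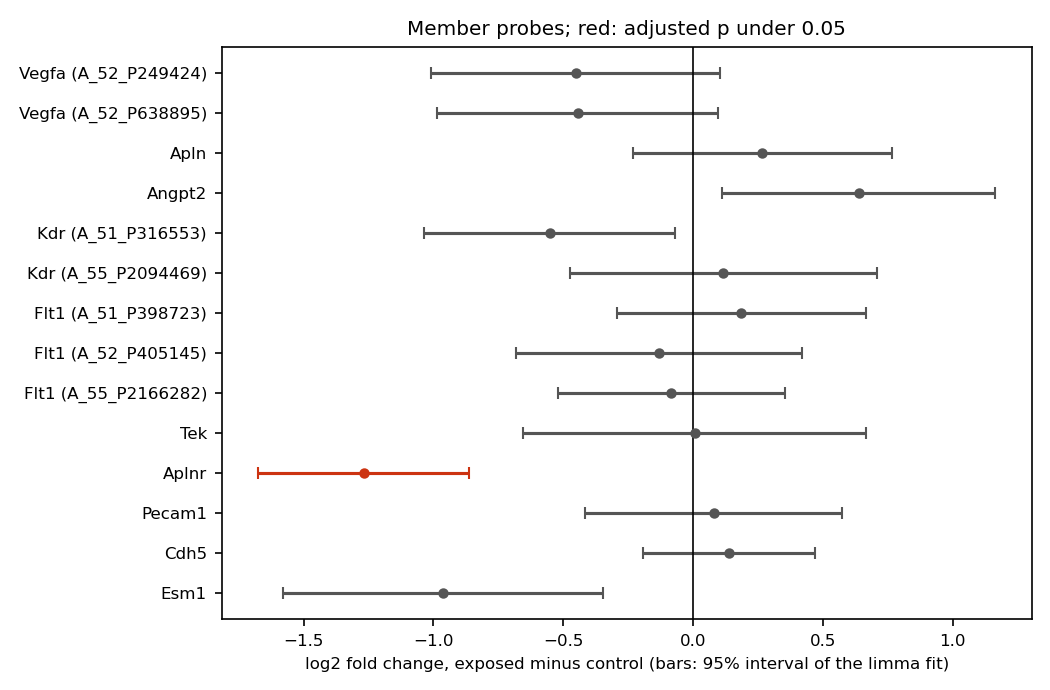
log2 fold change, exposed minus control, of the 14 member probes (horizontal axis) with the 95% interval of the limma fit. The intervals of Aplnr, Esm1, Angpt2 and one Kdr probe do not include 0, and only Aplnr, in red, had an adjusted p under the threshold.

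All 14 member probes were set against the endothelial identity list on each array in the same way, with 33 or 34 other genes in the mean. The groups did not overlap for 4 of them: Aplnr, Esm1, Angpt2 and one Kdr probe. On the log2 signal itself they did not overlap for 3 of the 14, and this Kdr probe overlapped. The share over all probes on the relative scale was not computed, so the count of 4 is a description only. Signals of different probes cannot be ranked against each other, so only the change between the groups is read from this comparison. For Esm1 the value was 2.47 to 2.93 in controls and 0.96 to 2.36 in exposed thyroids. For Angpt2 it was -2.69 to -2.15 in controls and -1.91 to -1.66 in exposed thyroids. For Kdr, on probe A_51_P316553, it was 1.58 to 1.95 in controls and 1.00 to 1.32 in exposed thyroids. The differences on this scale were -0.97 for Esm1, 0.63 for Angpt2 and -0.58 for this Kdr probe. The other Kdr probe, A_55_P2094469, was at 0.72 to 2.18 in controls and 1.12 to 1.41 in exposed thyroids, with the groups overlapping and a difference of 0.089. Across the members the controls differed among themselves: control 3 was the highest control for 13 of the 14 probes, against 27.1% of all probes, and control 1 the lowest for 9, against 42.4% of all probes.

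**Figure D4:**
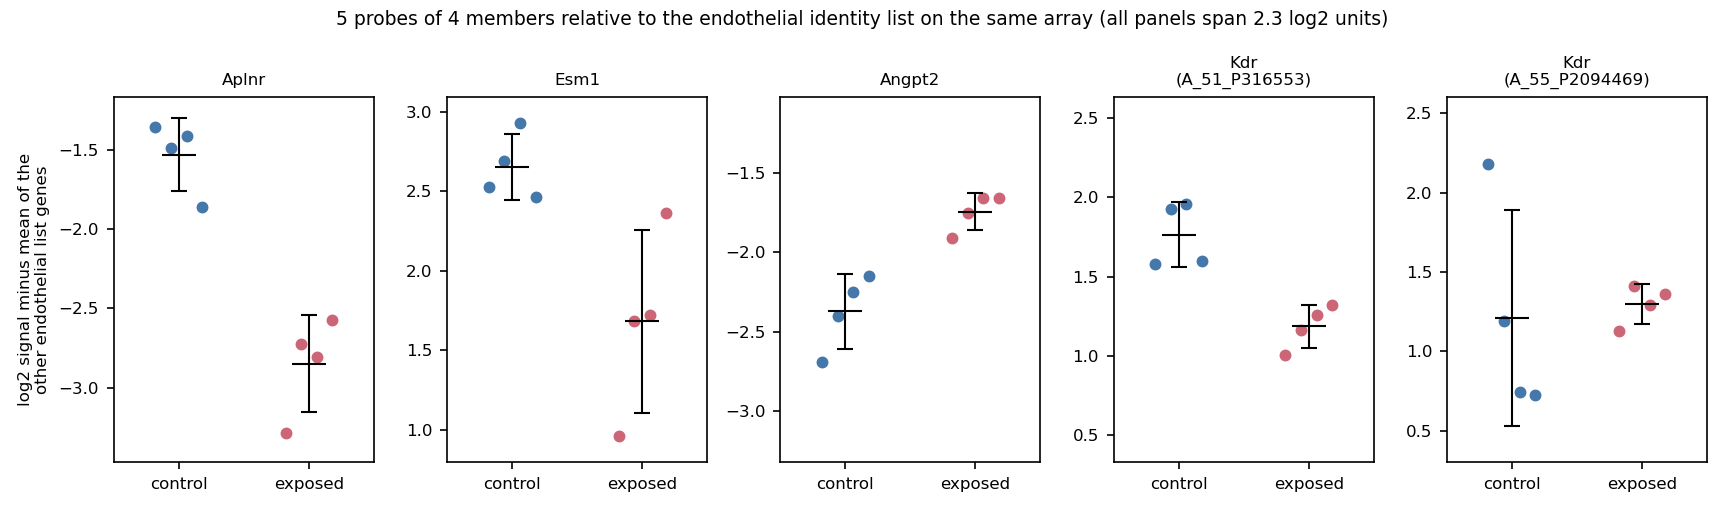
log2 signal of Aplnr, Esm1, Angpt2 and both Kdr probes minus the mean log2 signal of the other genes of the endothelial identity list on the same array (vertical axis), for control (blue) and exposed (red) arrays with mean and SD (n = 4). The groups lie apart in the panels of Aplnr, Esm1, Angpt2 and Kdr probe A_51_P316553, and overlap for Kdr probe A_55_P2094469.

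The other genes of vessels were read by the probe of highest mean signal of each gene, over 10 lists of 121 distinct genes. Of the 111 that are not members, 2 (1.8%) were called, both higher, beside 1.19% of all 21021 genes called in either direction. With the deposited values, with no background correction and with normexp the count was 5, of which 3 (Ddit4, Notch3 and Plaur) were higher and 2 (Heyl and Serpinf1) lower. Without control 1 it was 3: Ddit4, higher, and Heyl and Kcnj8, lower. With the main settings the 2 were Ddit4, a stress-induced inhibitor of mTORC1 signalling in the hypoxia list, and Notch3, the Notch receptor of pericytes and vascular smooth muscle. Ddit4 rose from 12.79 to 13.06 in controls to 15.12 to 15.49 in exposed thyroids, a difference of 2.34 ± 0.14 (SE, limma adjusted p = 0.00130). Notch3 rose from 12.08 to 12.43 in controls to 13.19 to 13.76 in exposed thyroids, a difference of 1.09 ± 0.17 (SE, limma adjusted p = 0.0364). Ddit4 was called in all 8 fits that left out 1 array and without controls 1 and 2 together, and Notch3 was not called in any of these.

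The endothelial identity list held 34 genes, of which 1 was called lower (Aplnr) and 0 higher. Its median difference was 0.02, beside -0.03 for all genes, and all 34 genes were well above background on every array, so endothelial RNA was measured in every thyroid. At an unadjusted limma p under 0.05 were 5 of the 34, of which 3 were higher and 2 lower, beside 12.2% of all probes, dim ones included. Its centred score ranged from -0.25 to 0.27 in controls and from -0.21 to 0.29 in exposed thyroids. Mmrn2, a matrix protein of endothelium, had the largest positive value, 1.03 ± 0.25 (SE, limma adjusted p = 0.148), with the groups apart, and Robo4, a guidance receptor, had 0.57 (limma adjusted p = 0.394). Aplnr had the lowest value of the list, followed by Kdr on probe A_51_P316553, whose other probe gave 0.12.

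**Figure D5:**
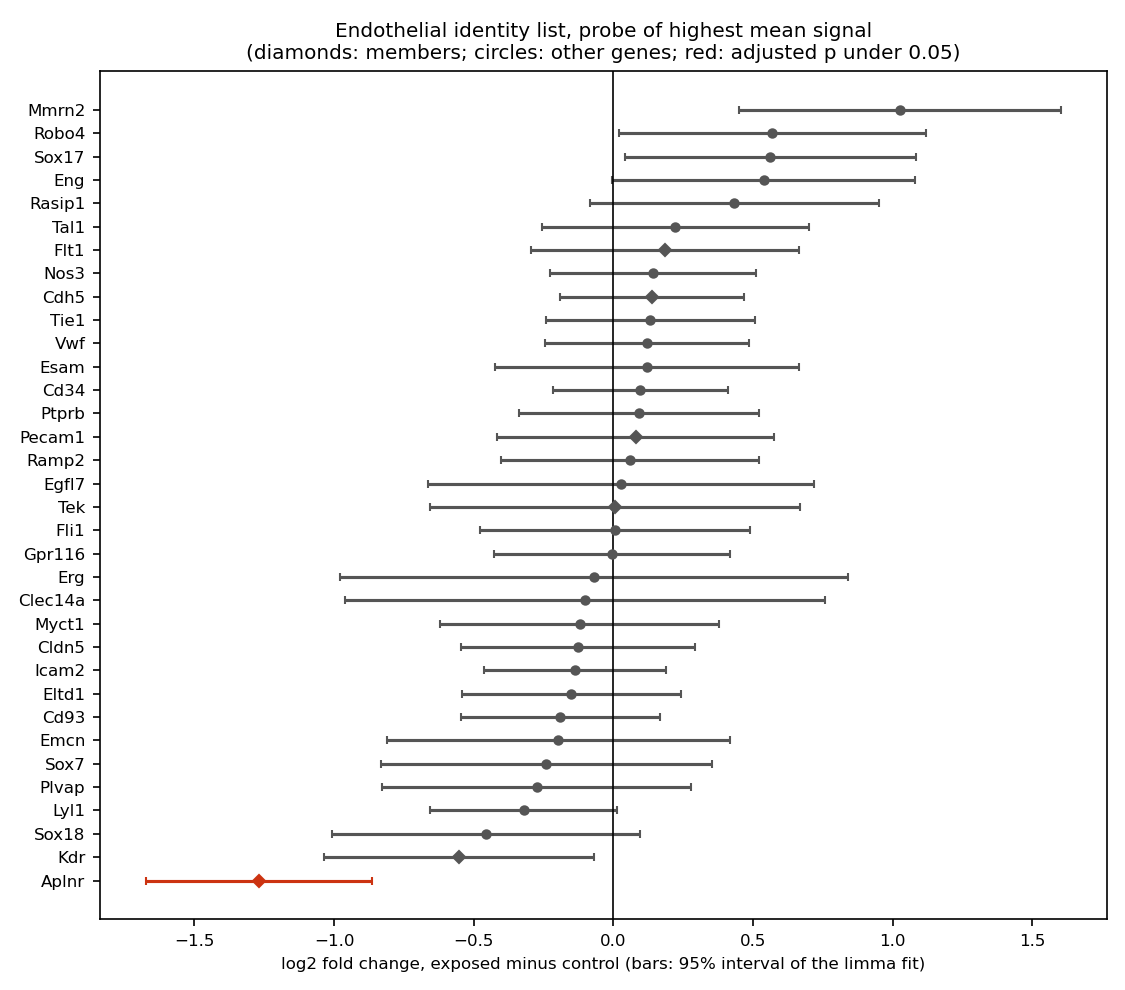
log2 fold change, exposed minus control, of the 34 genes of the endothelial identity list (horizontal axis) with the 95% interval of the limma fit, sorted by value. Aplnr stands apart at -1.27, Mmrn2 at 1.03, and the median gene lies at 0.02.

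Lists of the signalling pathways around the members showed few calls. Beside each count below stand 1.19% of all genes called and 12.2% of all probes, dim ones included, with an unadjusted limma p under 0.05. Of 10 VEGF ligands and receptors 0 were called, with a median of -0.21, and limma gave an unadjusted p under 0.05 for 1 of them (Kdr). The values at the ends of that list were all members, apart from the placental growth factor Pgf at 0.07 (limma adjusted p = 0.923). Of 9 angiopoietin and Tie genes 0 were called, with a median of 0.13 and 1 (Angpt2) at an unadjusted limma p under 0.05. In this list Dok2, an adaptor that binds Tek, had -0.59 (limma adjusted p = 0.546), and Foxo1, which drives Angpt2 transcription, had 0.23 (limma adjusted p = 0.531). Of 15 tip cell genes 0 were called, 4 had an unadjusted limma p under 0.05, and the median was -0.07. Plaur, the urokinase receptor, was closest to the threshold with 0.75 ± 0.13 (SE, limma adjusted p = 0.0584), and it was called with the deposited values, with no background correction and with normexp. The chemokine receptor Cxcr4 had -0.92 (limma adjusted p = 0.450).

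Of 12 Notch genes of vessels 0 were called, 1 had an unadjusted limma p under 0.05, and the median was 0.12. The 1 gene was Heyl, a transcriptional repressor downstream of Notch receptors, at 9.48 to 10.81 in controls and 8.32 to 9.09 in exposed thyroids, a difference of -1.60 ± 0.33 (SE, limma adjusted p = 0.0940). Heyl was called with those 3 alternatives and without control 1. Of 10 angiogenesis inhibitors 0 were called, 3 had an unadjusted limma p under 0.05, and the median was 0.25. Serpinf1, the antiangiogenic serpin PEDF, had -0.96 ± 0.16 (SE, limma adjusted p = 0.0535), and was called with those 3 alternatives, whereas Timp3 and Thbs1, which also restrain vessel growth, had 0.88 (limma adjusted p = 0.140) and 0.69 (limma adjusted p = 0.216). The groups were apart for all 3 of these genes, in opposite directions.

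Of 20 hypoxia response genes 1 (Ddit4) was called higher and 0 lower, 4 had an unadjusted limma p under 0.05, and the median was -0.21, with 14 of 20 below 0. Besides Ddit4, the ends of this list were Angptl4 at 0.81 (limma adjusted p = 0.587), the glycolytic enzyme Pgk1 at -0.57 (limma adjusted p = 0.447) and the oxygen sensor Egln3 at -0.996 (limma adjusted p = 0.404). Of 12 pericyte and smooth muscle genes 1 (Notch3) was called higher and 0 lower, and the median was 0.05, with 6 of 12 below 0. In this list 3 had an unadjusted limma p under 0.05, of which 1 was higher and 2 lower. The pericyte potassium channel subunit Kcnj8 had -0.85 (limma adjusted p = 0.238) and was called without control 1. Des had the lowest value of the list, -1.29 (limma adjusted p = 0.528), with the groups overlapping. Of 8 adhesion molecules that bind leukocytes 0 were called and 1 had an unadjusted limma p under 0.05, Icam1 at 0.87 (limma adjusted p = 0.278). The median of this list was 0.18, with 6 of 8 above 0, and Vcam1 had -0.42 (limma adjusted p = 0.664). Of 6 lymphatic genes measured 0 were called and 1, Pdpn, had an unadjusted limma p under 0.05, with -0.44 (limma adjusted p = 0.355). The lymphatic median was 0.13, with 4 of 6 above 0, and Lyve1 had 0.52 (limma adjusted p = 0.585).

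Markers of other cell types were counted on the same arrays, because each array holds the RNA of all cell types of the sample. Of 73 genes in 12 lists, 4 were called, beside 1.19% of all 21021 genes. All 4 were lower in exposed thyroids: the iodide transporter Slc5a5 and the deiodinase Dio1 of follicular cells, the macrophage receptor Cx3cr1 and the class II antigen H2-Aa of dendritic cells. The unadjusted counts that follow stand beside 12.2% of all probes, dim ones included, with an unadjusted limma p under 0.05. Of the 11 thyrocyte genes 2 were called lower and 3 had an unadjusted limma p under 0.05, with a centred score of 0.05 to 0.78 in controls and -0.52 to -0.25 in exposed thyroids. The score of 8 macrophage genes was -0.02 to 0.46 in controls and -0.44 to -0.15 in exposed thyroids, with 1 called lower and 3 of 8 at an unadjusted limma p under 0.05. The score of 7 dendritic cell genes was 0.08 to 1.32 in controls and -0.77 to -0.65 in exposed thyroids, with 1 called lower and 5 of 7 at an unadjusted limma p under 0.05. These 3 scores thus moved in the same direction as Aplnr, with no overlap between the groups. Their part in its result was not tested. Each score includes the genes called in its list, and no score was computed without them. Fold changes were below 0 for 9 of 11 thyrocyte, 7 of 8 macrophage and 7 of 7 dendritic cell genes, beside 49.2% of all probes. None of the 9 T cell and thymocyte genes was called, and the other lists, of B cells, platelets and megakaryocytes, erythroid cells, fibroblasts, skeletal muscle, adipocytes, parathyroid and C cells, held no called gene. Unadjusted limma p values under 0.05 numbered 0 of 9 for T cells, 0 of 5 for B cells, 1 of 6 for platelets, 0 of 4 for erythroid cells, 2 of 6 for fibroblasts, 0 of 6 for muscle, 1 of 5 for adipocytes, 0 of 3 for parathyroid and 0 of 3 for C cells. Values below 0 numbered 9 of 9 for T cells, 6 of 6 for fibroblasts and 6 of 6 for muscle. The medians of these lists were -2.22, -0.46 and -1.01. Values below 0 numbered 3 of 5 for B cells, 1 of 6 for platelets and 1 of 4 for erythroid cells. For adipocytes, parathyroid and C cells they numbered 2 of 5, 1 of 3 and 0 of 3. The muscle score was -0.18 to 1.08 in controls and -1.47 to 0.62 in exposed thyroids.

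The genes with the pattern most like that of Aplnr were sought among the 13900 genes whose log2 signal averaged 7 or more. Over the 8 arrays these were Nos2 (Pearson r = 0.995), Arhgef25 (0.983), Esrrb (0.981), Ltbp1 (0.980) and 9030025P20Rik (0.976). Of these, Esrrb was itself called lower, with a difference of -1.78 (limma adjusted p = 0.0233), and Nos2 had -0.64 (limma adjusted p = 0.0850). When each group's mean was removed first, the highest correlations were with Tes (0.972), Palm2 (0.969), Manf (0.965), Sec24d (0.962) and Tbcb (0.961), a list with no gene of the former. The arrays share 1 slide, and with 8 points among so many genes these correlations are descriptions.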

How the data were processed

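For each array the authors deposited the Feature Extraction 10.7.3.1 text output, in which every spot has an intensity with and without background subtraction, and a table of log2 values. The deposited log2 values were those of the median intensity after quantile normalization, within 0.0378. Their methods name limma, quantile normalization between slides and an adjusted p of 0.05, with 4 biological replicates per condition. Python 3.11.15 was used to read the files.

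From the scanner output, log2 of the background-subtracted intensity was quantile-normalized over 59305 non-control spots, spots were averaged per probe, and the groups were compared with limma 3.58.1 (lmFit and eBayes) in R 4.3.3, which was tested on simulated data. For list genes the probe of highest mean signal was used. Single values were tested by two-sided exact permutation over 70 assignments. Samples were grouped by their labels. The members and gene lists were chosen with earlier results of these data known. All members were named with every probe. From each vessel list the called genes and some of the 2 highest and 2 lowest among genes whose log2 signal averaged 7 or more were named. From cell type lists only called genes were named, and Ccl21a of the lymphatic list was not matched. Alternatives were 75th percentile scaling, the deposited values, normexp (offset of 50), no background correction, a dim probe filter, outlier-marked spots left out, a variance trend, array weights, the methods' t-test with Benjamini-Hochberg adjustment, the probe of smallest p, an unadjusted threshold and leaving out each array. Promoter sequences are from RefSeq (GRCm38.p6), and probe positions are in mm9. The number of arrays limits the precision.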

Additional observations from a re-analysis of the deposited data

Results flagged for a closer look

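Dixon's criterion was applied to 54 groups of 4 values, namely the 14 member probes, the 3 probe pairs and the 10 vessel list scores in each group, and chance marks about 1 in 20 such groups, or 2.7 here. It marked 2. For Tek, S589 had a log2 signal of 9.55, while the other exposed arrays lay between 9.06 and 9.11. For the hypoxia response list, control 4 had a centred score of 0.30, while the other controls lay between -0.08 and -0.03.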

How the results depend on the processing

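Of 238 recomputed differences of the member probes, 225 kept their direction and their side of the threshold, 5 (all of Aplnr) kept their direction and lost the call, 8 changed sign and 0 gained a call. Aplnr was called in 9 of 9 alternatives that kept all arrays, with -1.31 to -1.19 and limma adjusted p from 0.00403 to 0.0425, and in 3 of 8 that left out 1 array, where the difference was -1.36 to -1.13. The count of called member probes was 1, and 0 to 1 when 1 array was left out. Without controls 1 and 2 together, chosen after seeing the data, it was 0, with Aplnr at -1.32 (limma adjusted p = 0.149), Tek at -0.37 and Pecam1 at -0.18. Fewer samples entered these fits, which called 100 to 485 probes with 1 array left out and 83 with both, against 435 with all arrays.

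The changes of sign were all in members that were not called, and their cause was not tested. Scaling to the 75th percentile gave 0.16 for Flt1 probe A_52_P405145, and array weights gave -0.091 for Tek. Without control 1 Tek had -0.27 and Pecam1 -0.048, and without S589 Tek had -0.11 and Flt1 probe A_55_P2166282 had 0.031. That Flt1 probe had 0.016 without control 3, and Kdr probe A_55_P2094469 had -0.042 without control 4. With 1 array left out the ranges were -0.042 to 0.36 for this Kdr probe, -0.18 to 0.031 for the Flt1 probe, -0.27 to 0.15 for Tek and -0.048 to 0.23 for Pecam1. Vessel list genes called numbered 3 with the main settings, 1 to 4 without 1 array and 1 without controls 1 and 2. With the deposited values, with no background correction and with normexp they numbered 6, the same 6 genes in each case (Aplnr, Ddit4, Heyl, Notch3, Plaur and Serpinf1), and at an unadjusted p 22. The Kdr probe difference was -1.05 without control 1. Probes called over the whole array numbered 435, and 959 with array weights, 955 with the deposited values, 962 with no background correction, 857 with normexp, 733 without dim probes, 739 with a variance trend and 289 with the methods' t-test. Scaling to the 75th percentile moved the median of all probes to 0.16 and the share of higher calls from 75.2% to 84.7%. Array weights gave a share of 60.9%, and the other alternatives that kept all arrays gave 67.4% to 79.2%. With 1 array left out the share ran from 65.2% without control 1 to 86.6% without S588. No paired analysis was possible because the replicate numbers of the groups are not shared. All 14 member probes were well above background on all 8 arrays. Flt1 probe A_52_P405145 was nevertheless dim, with a mean log2 signal of 6.40 in controls and 6.27 in exposed thyroids. The number of arrays limits what could be detected.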
